A study of Drosophila melanogaster with 6 samples.

Results

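The odorant-binding protein (Obp) genes encode small secreted proteins of the fluid that surrounds sensory neurons. Members that are abundant in the antenna carry hydrophobic odorants and pheromones toward the receptors of olfactory neurons, others are found in taste organs, and some are made outside the sense organs, for example in the glands of the male reproductive tract. In flies many of them stand side by side in the genome in groups that arose by duplication. Of 51 Obp genes with a numbered symbol in the Release 6 annotation, 43 were taken here, all those for which at least 1 probe set of the array names that gene alone, without Obp22a, Obp56f, Obp56g and Obp99b. They are measured by 46 of 18769 probe sets, since Obp19a, Obp19c and Obp59a have 2 each. Obp50b, Obp50c, Obp57d and Obp83a have no probe set of their own and are named only. The symbol, apart from the genes left out, set the members, and this choice was made with earlier results of these data known. By chromosome arm 24 members lie on 2R, 10 on 3R, 6 on X, 2 on 3L and 1 on 2L.

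The values come from whole adult flies of 2 wild type laboratory strains, Canton-S and D18, aged 3 days, with 3 biological repeats per strain and 1 GeneChip Drosophila Genome array per repeat. Canton-S derives from North America and D18 from Russia, both are described as highly inbred, and both were kept at 25 °C on cornmeal-molasses medium with antibiotic. Each array was made from pooled flies, from 250 ng of total RNA. The deposited value of a probe set is on a log2 scale after RMA, a method that corrects background, normalizes the arrays together and summarises the probes, so that a difference of 1 is 2-fold. Array medians lay between 4.92 and 5.58 and lower quartiles between 2.96 and 3.09. Because brightness differs between probes, values of different probe sets were not read as relative amounts of RNA. Bright and dim refer only to the place of a value among those of the same array. Medians over lists of genes serve to compare arrays.

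Before strain is considered, a pair of arrays, Canton-S replicate 3 and D18 replicate 2, stands apart from the other 4. Across probe sets the pair correlated at 0.973 with each other and at 0.716 to 0.762 with the others. For 11 male accessory gland genes the median was 11.4 and 11.17 on the pair and 2.21 to 2.58 on the others. Of these, 10 were higher on the pair, and Acp95EF was not, with 4.19 and 4.17 against 4.01 to 4.29. All 12 testis genes were higher on the pair. All 13 genes of yolk and eggshell were lower on the pair, with medians of 4.35 and 3.82 against 11.66 to 13.05. The methods of the study give flies of both sexes for each extraction. The kinds of array are no groups of the labels, so they are described below and not tested, and the strain comparison was also run without the pair.

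Of the 46 Obp probe sets, 16 lay over the median of the array on all 6 arrays (37.8% of all probe sets did) and 9 lay under its lower quartile on all 6 (15.8% of all). Those 16 are Obp18a, Obp19a (1 of its probe sets), Obp19b, Obp19d, Obp28a, Obp44a, Obp49a, Obp56a, Obp56d, Obp56e, Obp57a, Obp57b, Obp57c, Obp83b, Obp99a and Obp99c. The 9 dim ones, for Obp46a, Obp47a, Obp50a, Obp50e, Obp56c, Obp57e, Obp85a and 1 probe set each of Obp19c and Obp59a, varied by only 0.27 to 0.87 on the log2 scale over the arrays, and differences at such low values are hard to read. The remaining 21 met neither rule. The median range over the 6 arrays was 1.36 for Obp probe sets and 1.15 for all probe sets.

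Obp56a was the Obp gene with the widest difference between the strains, and the Canton-S arrays were higher. Its values were 10.14, 10.25 and 9.33 on Canton-S replicates 1, 2 and 3 and 7.04, 5.63 and 7.57 on D18 replicates 1, 2 and 3. Every Canton-S array lay above every D18 array, and within each strain the array of the pair was the lowest. Canton-S had a mean of 9.91 ± 0.50 and D18 a mean of 6.75 ± 1.0 (SD, n = 3), which is 8.94-fold higher in Canton-S. The log2 difference of 3.16 had a standard error of 0.58, with an unadjusted p of 0.00197 and an adjusted p = 0.397 from limma over all probe sets. With the thresholds of the study's methods, which are a p under 0.01 before adjustment and a change of over 2-fold, Obp56a was the sole Obp probe set called. That is 1 of 46 toward Canton-S (1.08% of all probe sets were called in that direction) and 0 of 46 toward D18 (0.192% of all), where Obp56h alone had an unadjusted p under 0.05.

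The call of Obp56a depended on how the arrays were treated, while its direction was the same under every alternative run. On the pair alone Canton-S was 13-fold higher and on the other 4 arrays 7.40-fold. With a block for the kind of array the standard error fell to 0.24 and Obp56a had an adjusted p = 0.00864 from limma, and without the pair the log2 difference was 2.89 with an adjusted p = 0.0331 from limma. Each strain holds 1 array of the pair, so the block leaves the difference as it is and changes only the spread. With the replicate number as a block the unadjusted p from limma was 0.012 (adjusted p = 1.0) and the call was lost, so that 0 of 46 Obp probe sets were called (0.49% of all probe sets) and only that of Obp56a had an unadjusted p under 0.05. At an adjusted p under 0.05, 0 of 46 Obp probe sets were called with strain alone (0.0373% of all probe sets, with 3 Obp probe sets, for Obp56a, Obp56h and Obp57c, at an unadjusted p under 0.05 in limma), 1 of 46 with the block for the kind of array (0.506% of all) and 1 of 46 without the pair (0.309% of all). In these last fits 10 and 6 Obp probe sets had an unadjusted p under 0.05. The share of all probe sets under that limit was not counted, so these counts are not read as particular to the Obp genes.

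Obp56b, Obp56c, Obp56d, Obp56e, Obp56h and Obp56i, the other members of the Obp56 group described here, were not called with strain alone. In the Release 6 annotation Obp56a, Obp56b, Obp56c, Obp56d and Obp56e follow each other on 2R with no protein-coding gene between them, and Obp56h and Obp56i lie further along the same stretch. Obp56d, abundant in the antenna, had 10.06, 10.34 and 11.03 on the Canton-S arrays and 10.17, 9.38 and 11.04 on the D18 arrays, which overlap. Its log2 difference was 0.28 with a standard error of 0.50 (unadjusted p of 0.6 from limma). Obp56b and Obp56c stood between 2.08 and 3.06 on all arrays, close to or under the lower quartile, with differences of -0.09 and -0.24.

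Obp56h, which in fly knockdown studies alters mating behaviour, was higher in D18 on every array. It had 4.07, 4.11 and 3.62 on the Canton-S arrays and 4.69, 4.77 and 4.95 on the D18 arrays, and the strains did not overlap. The means were 3.93 ± 0.27 and 4.80 ± 0.13 (SD, n = 3), 1.82-fold apart. The unadjusted p from limma was 0.0097 (adjusted p = 0.672), but the difference is under the 2-fold threshold and was not called. It was 1.65-fold on the other 4 arrays and 2.22-fold on the pair, and all these values lie under the medians of the arrays.

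Obp28a, an abundant protein of antennal sensilla, also had no overlap between the strains. Its values were 6.88, 6.91 and 7.76 on Canton-S replicates 1, 2 and 3 and 5.10, 6.85 and 6.09 on D18 replicates 1, 2 and 3. The lowest Canton-S array exceeded the highest D18 array by little, and the highest array of each strain belonged to the pair. Canton-S was 2.25-fold higher, with a log2 difference of 1.17 and a standard error of 0.52 (unadjusted p of 0.07 from limma). With the block for the kind of array the unadjusted p was 0.00568 (adjusted p = 0.193 from limma) and Obp28a was called at the study's thresholds together with Obp56a, 2 of 46 (2.38% of all probe sets). Without the pair the unadjusted p was 0.0136 and Obp28a was not called, and Obp56a was 1 of 46 (2.74% of all). Without D18 replicate 1 the log2 difference of Obp28a fell to 0.72.

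In all, 4 Obp probe sets lay higher on every Canton-S array than on any D18 array (5.62% of all probe sets), those for Obp28a, Obp56a, Obp57c and Obp57e. A further 2 lay higher on every D18 array, those for Obp47b and Obp56h (2.39% of all). Obp57c had 9.83, 9.39 and 9.33 in Canton-S and 8.59, 9.06 and 9.02 in D18, a log2 difference of 0.63 with a standard error of 0.25 (unadjusted p of 0.0496 from limma), and 0.80 without the pair. Obp57e, which in flies takes part in taste responses to fatty acids, was dim on all arrays, with 2.62, 2.26 and 2.30 in Canton-S and 1.86, 1.85 and 2.01 in D18. Obp47b was dim too, between 3.03 and 3.95, with a difference of -0.43. Over the 46 probe sets the median log2 difference was 0.10, against -0.05 over all probe sets. Of the 46, 25 were higher in Canton-S (42.2% of all probe sets) and 21 in D18. After all arrays had been moved to the same median, the median differences became -0.06 and -0.22.

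**Figure D1:**
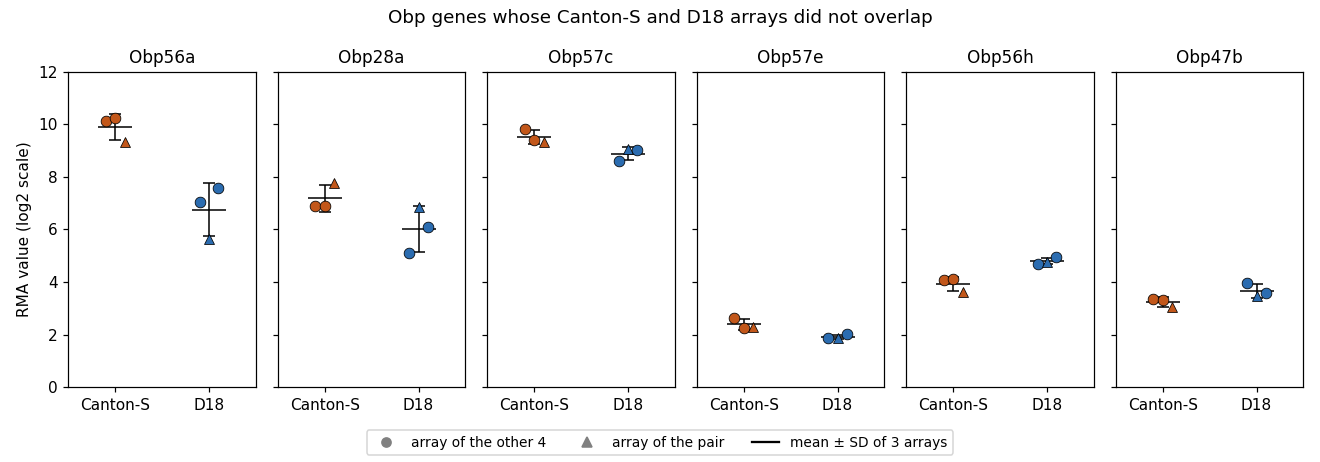
RMA values (log2 scale, vertical axis) of the 6 Obp genes whose Canton-S and D18 arrays did not overlap, with 1 point per array, triangles for the pair of arrays that stand apart, and a bar with whiskers for the mean ± SD of 3 arrays. Obp56a differs most, with 9.33 to 10.25 in Canton-S and 5.63 to 7.57 in D18, while Obp57e and Obp47b are dim on all arrays.

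Strain differences on the pair and on the other 4 arrays were alike for some Obp genes and of opposite sign for others. The difference of Canton-S replicate 3 from D18 replicate 2, 1 array each, exceeded 1 on the log2 scale for 6 Obp probe sets, those of Obp56a, Obp56d, Obp56e, Obp56h, Obp56i and Obp83g (6.95% of all probe sets). On the other 4 arrays, 2 per strain, the difference exceeded 1 for 6 probe sets as well, both of Obp19a and those of Obp19c, Obp28a, Obp56a and Obp57a (5.41% of all). Only Obp56a is in both groups, 1 of 46 (1.95% of all). Obp57a lay just under the limit on the pair and had nearly the same difference on both, with Canton-S 2.0-fold higher on the pair and 2.01-fold on the others. Obp56e had 6.53 on the Canton-S array of the pair and 9.50 on the D18 array, 7.83-fold apart, and on the other 4 arrays 8.62 and 7.81 in Canton-S and 8.14 and 8.20 in D18. Its strain difference was therefore -2.97 on the pair and 0.04 on the others.

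Obp56d and Obp83g also changed sign between the kinds of array. Obp56d differed by 1.65 toward Canton-S on the pair and by -0.41 on the others. Obp83g had 5.27 against 6.76 on the pair and 7.11 and 5.22 against 5.58 and 5.13 on the others, so that 1 Canton-S array, replicate 1, set it apart there. The pair holds 1 array per strain, so its differences have no replicate check, and whether the strain difference itself differs between the kinds of array was not tested.

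**Figure D2:**
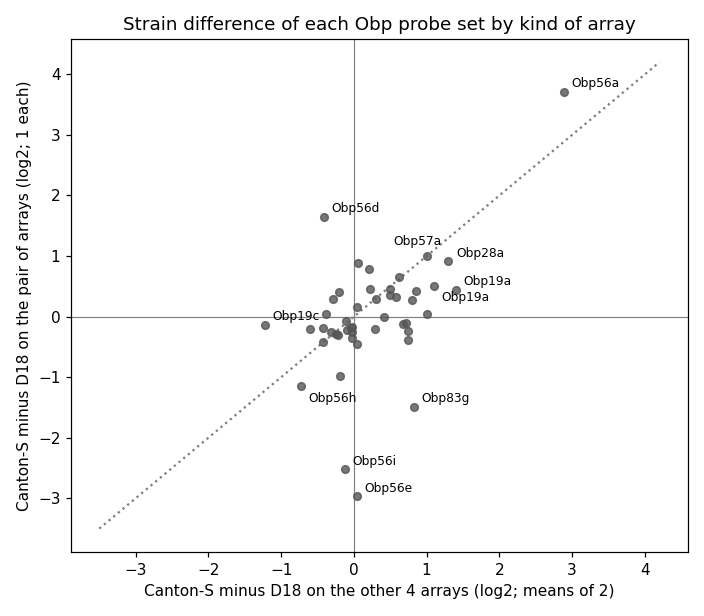
Log2 difference of Canton-S from D18 for each of the 46 Obp probe sets, on the 4 arrays other than the pair (horizontal axis, means of 2 arrays per strain) and on the pair (vertical axis, 1 array per strain), with a dotted line of equality. Obp56a lies far from 0 on both axes at 2.89 and 3.71, while Obp56e and Obp56i differ by more than 1 only on the pair, by -2.97 and -2.52.

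Genes of the male reproductive tract were among the Obp genes that separated the pair from the other arrays. Obp51a, Obp8a, Obp56i and Obp56e are known from seminal fluid. Obp51a had 12.10 on the Canton-S array and 11.22 on the D18 array of the pair and between 1.81 and 2.09 on the other 4. Those 4 values lie under the lower quartile, so the mean difference of 9.70 depends on the lower bound of the signal. Obp56i had 5.16 and 7.68 on the pair and 2.34 to 2.56 on the others, and within the pair D18 was 5.74-fold higher. Obp8a had 7.15 and 6.37 on the pair and 4.62 to 5.09 on the others. Obp56e did not separate the arrays, since the others, at 7.81 to 8.62, lay between the 6.53 and 9.50 of the pair. None of the 4 genes was called between the strains, whose differences were 0.34, -0.92, 0.40 and -0.96 for Obp51a, Obp56i, Obp8a and Obp56e.

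Outside the seminal fluid genes, Obp44a had 11.74 and 11.98 on the pair and 10.11 and 9.32 in Canton-S and 8.91 and 9.01 in D18 on the others. Obp83b had 9.26 and 8.82 on the pair and 5.21 to 7.73 on the others, and Obp69a had 8.03 and 7.67 against 4.76 to 6.53. In total the pair lay above all other arrays by more than 1 for 6 Obp probe sets (10.3% of all probe sets), those of Obp8a, Obp44a, Obp51a, Obp56i, Obp69a and Obp83b. This count depended on the scaling, since with the arrays set to 1 median it was 3 (9.38% of all), for Obp44a, Obp51a and Obp56i.

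Obp19c went the other way and was the sole Obp probe set where the pair lay below all others by more than 1 (9.22% of all probe sets). With the arrays set to 1 median Obp83cd joined it, 2 of 46 (14.7% of all). It had 2.98 and 3.12 on the pair and 8.41 and 7.82 in Canton-S and 10.11 and 8.56 in D18 on the others. The 2 pair values lie near the lower quartile, and the second probe set of Obp19c was dim on all arrays at 1.81 to 2.69. Its neighbours on X, Obp19a, Obp19b and Obp19d, follow each other with Obp19c in the annotation with no other protein-coding gene between them. All 3 had a higher mean on the pair, by 0.91 and 0.73 for the 2 probe sets of Obp19a, 1.33 for Obp19b and 0.93 for Obp19d, against -5.68 for Obp19c. For Obp19a the arrays overlapped, since Canton-S replicate 2, at 7.38 and 6.85, lay above the D18 array of the pair, at 7.24 and 6.53. For Obp19d the pair lay above the others by only 0.10.

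With no minimum gap, the pair lay above all others for 11 Obp probe sets (17.4% of all probe sets) and below all others for 11 (47.3% of all). Among the latter were Obp83cd and Obp83ef, neighbours on 3R, and Obp57a. Obp83cd had 3.61 and 3.56 on the pair and 4.33 to 6.04 on the others, and Obp83ef 3.57 and 3.95 against 4.04 to 6.04. Obp57a had 8.75 and 7.75 on the pair, 10.58 and 10.60 in Canton-S and 8.85 and 10.33 in D18. Its log2 difference between the strains was 1.0 with a standard error of 0.84 (unadjusted p of 0.281 from limma). With the block for the kind of array the standard error was 0.37.

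**Figure D3:**
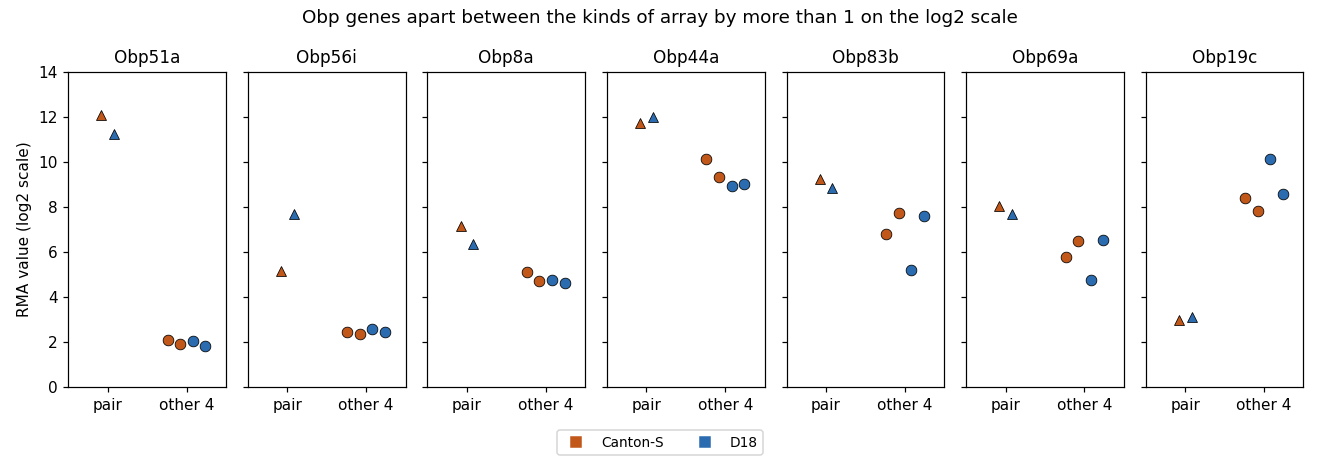
RMA values (log2 scale, vertical axis) of the 7 Obp genes for which the pair of arrays (triangles) lay outside all other 4 (circles) by more than 1, with 1 point per array coloured by strain. Obp51a reads 12.10 and 11.22 on the pair and no more than 2.09 on the others, and Obp19c, alone, is lower on the pair.

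The Obp genes known to be abundant in the antenna were mostly lowest on 1 array, D18 replicate 1. Of 9 such genes listed, 8 were measured by 10 probe sets, and none was called with strain alone. The strain differences of the 10 had a median of 0.47, with 8 higher in Canton-S (42.2% of all probe sets). For 7 of the 10, D18 replicate 1 was the lowest of the 6 arrays, as it was for 12 of all 46 Obp probe sets (13.9% of all probe sets). Those 7 are both probe sets of Obp19a, 1 of Obp59a, and Obp28a, Obp69a, Obp83b and Obp84a. The margin for Obp59a was small, 3.89 against 3.95 on Canton-S replicate 1. D18 replicate 1 also had the lowest array median, 4.92 against 5.05 to 5.58, and these counts were not repeated with a common median. D18 replicate 3 is an array of the same strain and kind. Of the 10 probe sets, 8 were lower on replicate 1 than on replicate 3 (8506 of all 18769 probe sets).

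Obp83b, which together with Obp83a is found in antennal sensilla, had 6.80, 7.73 and 9.26 on Canton-S replicates 1, 2 and 3 and 5.21, 8.82 and 7.59 on D18 replicates 1, 2 and 3. D18 replicate 1 lay 5.19-fold below D18 replicate 3. Obp69a, which in flies takes part in social responses to a male pheromone, had 5.79, 6.48 and 8.03 in Canton-S and 4.76, 7.67 and 6.53 in D18, and D18 replicate 1 was 3.40-fold below replicate 3. In both genes D18 replicate 1 was the lowest array and the pair the highest.

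Obp19a gave 7.12, 7.38 and 7.68 in Canton-S and 5.06, 7.24 and 6.63 in D18 with its brighter probe set, and 6.37, 6.85 and 7.04 and 4.89, 6.53 and 6.12 with the other. The 2 probe sets ranked the arrays alike in Canton-S and in D18. The strain differences were 1.08 and 0.90 with standard errors of 0.59 and 0.48, and without D18 replicate 1 they were 0.46 and 0.42. Obp84a had 4.30, 4.53 and 5.04 in Canton-S and 3.19, 4.71 and 4.48 in D18, and its difference of 0.50 was 0.03 without D18 replicate 1. For Obp83b and Obp69a the differences of 0.72 and 0.45 became -0.28 and -0.33 without that array. The direction of the difference of Obp83b and Obp69a thus changed with 1 array left out.

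In Obp99a and Obp59a the arrays differed less. Obp99a had 9.08, 9.93 and 9.67 in Canton-S and 9.43, 9.88 and 8.99 in D18, and its strain difference was 0.13 with a standard error of 0.35. Obp59a, which in flies is needed for sensing humidity, had 3.95, 4.29 and 3.99 in Canton-S and 3.89, 4.34 and 4.39 in D18 with its brighter probe set, a range of only 0.50 over the arrays. The other probe set of Obp59a was under the lower quartile on all arrays.

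Of the 3 measured Obp genes of taste organs, Obp19b and Obp49a resembled those of the antenna and Obp57e did not. Obp57e, dim on all arrays, was lowest on D18 replicate 2, at 1.85 against 1.86 on D18 replicate 1. Its strain difference of 0.48 was 0.46 without D18 replicate 1. Obp49a, which in flies binds bitter compounds and lowers the response to sugar, had 6.93, 7.09 and 7.41 in Canton-S and 6.04, 7.40 and 7.14 in D18. Obp19b had 5.90, 6.01 and 7.28 in Canton-S and 5.27, 6.99 and 6.04 in D18. In both, D18 replicate 1 was the lowest array and the pair the highest, and the strain differences of 0.28 and 0.30 had standard errors of 0.41 and 0.59. Both differences were negative without D18 replicate 1, at -0.13 and -0.12. Obp19d, present in several sense organs, had the same lowest array, with 9.96, 10.34 and 11.09 in Canton-S and 8.87, 10.44 and 10.19 in D18.

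Among olfactory genes without an Obp symbol, a list of binding proteins, co-receptors and enzymes was mostly lowest on D18 replicate 1. The list of odorant and ionotropic receptors, mostly at low values, was not. Of the 12 genes of the first list, 11 were measured by 12 probe sets, with 2 for Snmp2, and none was called between the strains. Of the 12 probe sets, 9 were lowest on D18 replicate 1 (13.9% of all probe sets), both of Snmp2 among them. The gene lush, which encodes a pheromone-binding protein of the Obp family, had 4.77, 5.51 and 6.90 in Canton-S and 3.24, 5.95 and 4.56 in D18. Orco, the co-receptor of all odorant receptors, had 4.84, 4.82 and 4.99 in Canton-S and 3.80, 4.95 and 4.96 in D18. Os-C and a10, small antennal proteins, stood 2.47-fold and 2.39-fold lower on D18 replicate 1 than on D18 replicate 3, and the esterase Jhedup 6.29-fold. The 3 exceptions were Ir8a, Ir25a and Ir76b, co-receptors of ionotropic receptors, with values between 2.66 and 4.42. The 18 odorant and ionotropic receptors listed had array medians of 2.49 to 2.88, under the lower quartiles of the arrays. Of the 18, 0 were lowest on D18 replicate 1. The lower quartile of that array, 3.09, is at the top of the range of 2.96 to 3.09, so this count says little about the receptors. Or43b had 5.10, 5.21 and 4.48 in Canton-S and 5.76, 4.21 and 5.08 in D18, and was highest on that array.

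Markers of neurons had the same lowest array. Of 7 neuron markers, 6 were lowest on D18 replicate 1 (13.9% of all probe sets). All 7 were lower there than on D18 replicate 3 (8506 of all 18769 probe sets), by a median of -1.20 on the log2 scale. The same median was -1.12 for the 10 antennal Obp probe sets, -1.02 for the other olfactory genes and 0.04 for all probe sets. All 7 neuron markers were also higher on the pair than on the other arrays (17.4% of all probe sets), with medians of 7.49 and 8.13 against 5.69 to 6.93. For none of them did the gap exceed 1. The array medians of the pair, 5.57 and 5.58, also lay above those of the others, 4.92 to 5.29. This count was not repeated with a common median. The part of the share of nervous tissue, or of head, in the Obp values was not tested, and in RNA of whole flies fewer cells of a type and less RNA per cell cannot be told apart.

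**Figure D4:**
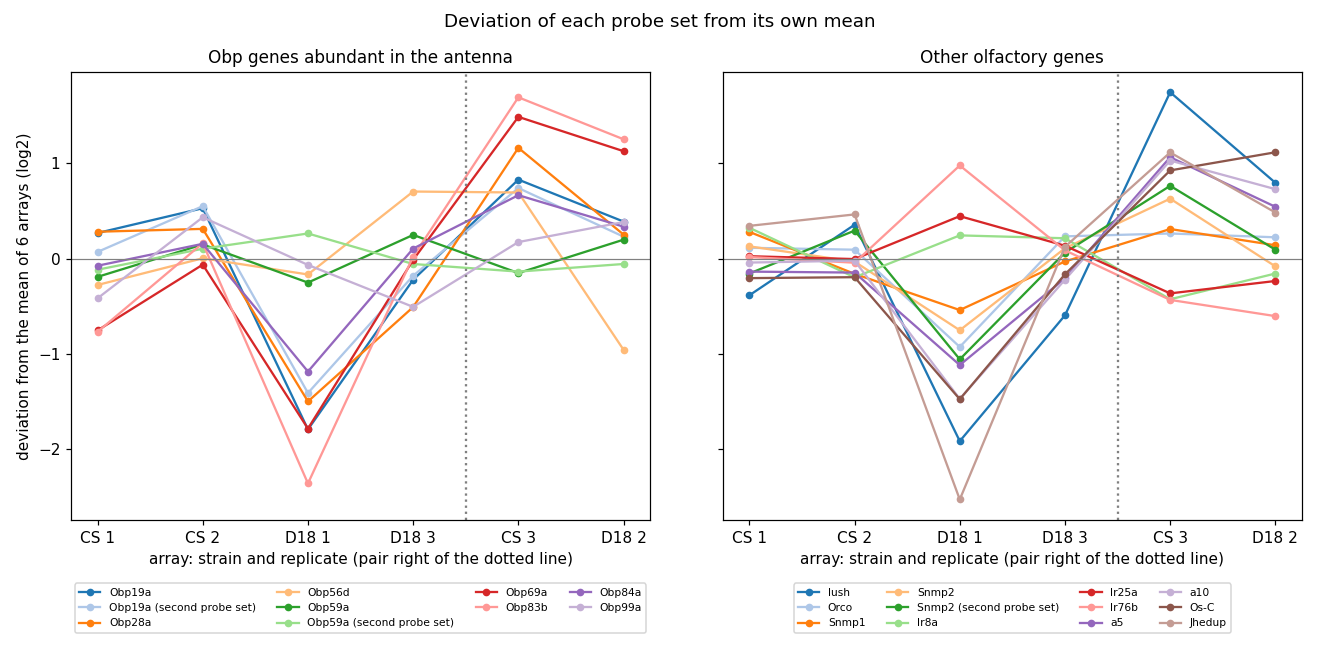
Deviation of each probe set from its own mean over the 6 arrays (vertical axis, log2) for 10 probe sets of antennal Obp genes (left) and 12 of other olfactory genes (right), with the arrays on the horizontal axis (CS for Canton-S; the pair is right of the dotted line). Most lines drop on D18 replicate 1, where Obp83b reads 5.21 and lush 3.24, and lie over their own mean on the pair. With no minimum gap, the pair lay above all other arrays for 3 of the 10 and 5 of the 12 probe sets (17.4% of all probe sets). These counts were not repeated with a common median.

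Of the members not yet described, Obp99c, Obp57b and Obp18a were over the median on every array, and none was called between the strains. Obp99c had 12.05, 11.05 and 11.37 in Canton-S and 11.16, 11.47 and 10.49 in D18, with a difference of 0.45 and a standard error of 0.39. Obp57b had a difference of 0.40 and Obp18a of 0.30, and in all 3 genes Canton-S replicate 1 was the highest array. Obp58b, Obp58c, Obp58d, Obp73a, Obp93a, Obp99d and Obp50d stood between 2.53 and 4.24 on all arrays. Their strain differences ran from -0.48 to -0.12, all toward D18, and none was called. These genes lay under the median of every array, and 10840 of all 18769 probe sets were higher in D18.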

How the data were processed

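Total RNA of whole flies was hybridised to GeneChip Drosophila Genome 2.0 arrays, 1 per repeat. The authors deposited RMA values on a log2 scale for each probe set, computed over the 6 arrays with default settings, and array number, not depth, limits the precision. Probe sets were named from the platform annotation, with symbols updated to the Release 6 annotation: 13647 of 18769 name 1 gene, 402 several and 4720 none. The array design rests on an older genome release, so no coordinates are given, and gene order comes from Release 6. The files were read with Python 3.11.15, and strains were compared with limma 3.58.1 in R 4.3.3 (lmFit and eBayes, strain as the only factor, Benjamini-Hochberg over all 18769 probe sets), after a test on simulated data. The thresholds, p under 0.01 and more than 2-fold, follow the study's methods. An exact permutation test of 3 against 3 arrays cannot go below p = 0.10, so none was used.

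Per-array values are given for probe sets past these thresholds with strain alone, with the block for the kind of array or without the pair, for the 10 largest strain differences, for those separating the kinds of array by more than 1 and for the antennal, taste and seminal fluid lists. Obp18a, Obp19d, Obp47b, Obp50d, Obp57b, Obp57c, Obp58b, Obp58c, Obp58d, Obp73a, Obp83cd, Obp83ef, Obp83g, Obp93a, Obp99c, Obp99d, the dim genes and single genes without an Obp symbol were named after their values were seen. The members and lists were chosen with earlier results of these data known.

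Both strains of a repeat were extracted together, a week apart between repeats, so the replicate number may mark a shared day. Deviations from the strain means correlated at 0.777, -0.93 and -0.86 for replicates 1, 2 and 3. The array of the pair is replicate 3 in Canton-S and replicate 2 in D18, and it dominates these deviations. The signs therefore follow where the pair falls and cannot show whether a day was shared. Alternatives were a block for replicate or for the kind of array, leaving out the pair or each array in turn, quantile normalization, a common median, leaving out the 40% dimmest probe sets, an intensity trend, no moderation and an adjusted p under 0.05.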

Additional observations from a re-analysis of the deposited data

How the results depend on the processing

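At the study's thresholds 239 of all probe sets and 1 of the Obp probe sets, Obp56a, were called with strain alone. With the replicate number as a block (pairing by repeat) these counts were 92 and 0, with a block for the kind of array 447 and 2, and at an adjusted p under 0.05 they were 7 and 0. For all probe sets the count was 514 without the pair, 121 with a common median and 157 without moderation, and it ran from 130 to 297 with each array left out in turn, while Obp56a was called each time. The replicate block lost Obp56a and the block for the kind of array added Obp28a, and neither changed the call of any other named Obp probe set. With no minimum gap 22 instead of 7 Obp probe sets separated the kinds of array, and with a common median 5 did, 3 of them above in place of 6. The sign of the strain difference turned for Obp56d (-0.41) and Obp56e (0.04) without the pair and for Obp99a (-0.03) with a common median. The cause of these changes was not tested.

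Leaving out 1 array in turn changed the sign for 12 named probe sets, whose log2 differences ran from -0.35 to 0.96 for Obp8a, from -0.15 to 0.74 for Obp19b, from -2.93 to 0.85 for Obp19c, from -0.25 to 1.43 for Obp44a, from -0.13 to 0.55 for Obp49a, from -3.03 to 3.43 for Obp51a, from -0.13 to 0.70 for Obp56d, from -1.84 to 0.80 for Obp56i, from -0.18 to 0.00 for the dim probe set of Obp59a, from -0.33 to 1.13 for Obp69a, from -0.28 to 1.52 for Obp83b and from -0.09 to 0.37 for Obp99a. None of these was called. For Obp56a the difference ran from 2.60 to 3.57. With 3 arrays per strain and a pair that stands apart, differences of the size of the spread could not be resolved.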
